A study of Mus musculus with 3 samples.

Results

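The 9 genes Upf1, Upf2, Upf3a, Upf3b, Smg1, Smg5, Smg6, Smg8 and Smg9 encode factors of nonsense-mediated decay (NMD). They were picked by symbol from the 32285 genes of the files, and all 9 were found, each under 1 identifier. NMD degrades messenger RNAs on which translation stops too early or in an unusual context. The helicase UPF1 is recruited to the terminating ribosome and meets UPF2 and a UPF3 protein, which can sit on an exon junction complex left downstream by splicing. The kinase SMG1, with its partners SMG8 and SMG9, phosphorylates UPF1, which then binds the endonuclease SMG6 and the adaptor SMG5. NMD needs translation, so a drug that stops ribosomes blocks it. In human cells, transcripts of several of the factors, among them Upf1, Upf2, Upf3b, Smg1, Smg5 and Smg6, have been reported as NMD targets themselves, a form of autoregulation. In mouse embryonic stem cells NMD is known to be needed for differentiation.

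The cells were E14 mouse embryonic stem cells, an established line of 129/Ola background, kept in medium with serum and the cytokine LIF. From 24 h after seeding they received cycloheximide, which blocks translation elongation, at 250 µg/mL in 0.007% ethanol for 3 h or for 6 h, or ethanol alone for 6 h as the control. Each group was 1 library of frozen and thawed cells, measured by 10x Genomics 3' single-cell RNA sequencing of polyadenylated RNA. With 1 library per group there was no replicate check and no test between groups was made, and for 3 h there was no ethanol control of the same length.

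Barcodes with at least 15000 unique molecular identifiers (UMIs) and a mitochondrial share of 1 to 20% were kept, which gave 2187 control, 1739 3 h and 2554 6 h barcodes. They held 111447486, 106842407 and 140321458 UMIs. Pairs of libraries shared 1 to 3 of the kept barcode sequences. The median mitochondrial share was 4.58% in the control, 3.52% after 3 h and 2.89% after 6 h, and its part in the results was not tested. The limit of 1% removed 62 control barcodes, 1 after 3 h and 8 after 6 h. All 10 stem cell markers were detected, with a sum of 7260 to 8205 CPM over the libraries, where CPM are UMIs of a gene per 1000000 UMIs of its library. Most of this sum was Dppa5a, with 4771 CPM in control cells. By CPM 3 of the 10 markers were at least 1.5-fold lower after 6 h, Zfp42 (log2 ratio -0.93), Utf1 (-0.73) and Fgf4 (-0.67). The same held for 7.79% of the 7608 genes averaging 10 CPM or more. From 3 h to 6 h it held for 5 of 10, Sox2, Zfp42, Esrrb, Klf4 and Utf1, against 2.52% of those genes. Under TMM factors, described below, the marker counts were 4 after 6 h (16.9% of those genes) and 5 from 3 h to 6 h (4.22%). The part of these marker differences in the results was not tested, and the markers were named after their values were seen. Sums were 1.99 to 2.93 CPM for 8 fibroblast markers, with Col3a1, Postn and Lum at 0 in all 3 libraries, 21.9 to 29.5 CPM for 8 endoderm markers, and 4.68 to 7.54 CPM for 7 mesoderm markers. They were 37.3 to 40.3 CPM for 6 trophectoderm markers, with Elf5 at 0. The 6 neural markers, Tubb3 mainly, summed to 81.9 CPM in control cells, 59.3 CPM after 3 h and 43.0 CPM after 6 h, and the part of this in the results was not tested. Fewer cells of a type and less RNA per cell cannot be told apart in such sums.

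Transcript features that NMD can read were taken from the gene models, with 1 reference transcript per gene. An upstream start codon (ATG in the 5' UTR) was present in Upf2, Smg5, Smg9 and Smg1, once in each, and absent from the other 5. Among 7487 coding genes averaging 10 CPM or more over the libraries, 48.1% had at least 1. The sites in the 4 factors are printed here because these factors differed in their response. They lie at chr2:5951522-5951551 on the plus strand for Upf2 and chr3:88336291-88336320 on the plus strand for Smg5. For Smg9 the site is at chr7:24399619-24399643 on the plus strand, and for Smg1 at chr7:118243293-118243322 on the minus strand, all on GRCm38 in GENCODE M21 transcripts. Capitals mark the upstream ATG, and all sequences are 5' to 3'.
Upf2: aacccggggctaATGttgacaacaggcact
Smg9: gcggcgcATGcgccgagctagcagc
Smg5: cgcctcacagcgATGgcggccgagcagggc
Smg1: cggcgcttggccATGtcgtgtcggggaagg
In Upf2 the upstream reading frame had 12 codons before its stop, and the last base of that stop was the first base of the annotated start codon. Smg1 had the same arrangement with 6 codons. The upstream frames of Smg9, with 35 codons, and of Smg5, with 30 codons, ended 164 and 28 bases before the coding sequence. Whether these frames are translated was not measured.

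The other feature is the place of the stop codon, shown for Upf1 and Upf2 because theirs were closest to the last exon junction. The windows hold the last 27 coding bases and the stop codon, in capitals.
Upf1: ggcggggtcaccgggctgtcccagtacTAG
Upf2: atctttaagactggtgggaggagacgtTGA
In Upf1 (minus strand, chr8:70332623-70332652) the last junction lay 3 bases after the stop codon. In Upf2 the window spans the last junction, which lay 10 bases before the end of the stop codon. None of the 9 reference transcripts had a junction over 50 bases past the stop codon, the classical NMD signal, and 15 of the 7487 coding genes (0.200%) did. Reference transcripts were picked only among those of the protein-coding class, so transcripts of the class nonsense-mediated decay could not enter this count. It therefore does not show whether other transcripts of the factors carry the signal. The 3' UTR, whose length can also mark a transcript for NMD, ranged from 221 bases in Smg8 and 400 bases in Smg9 to 4233 bases in Smg1, against a median of 933 bases over the coding genes. It had 1261 bases in Upf2, 834 bases in Upf3b and 719 bases in Upf3a. The annotation lists 1 transcript of the class nonsense-mediated decay for each of Smg1, Smg5 and Smg6 and none for the other 6, while 31.6% of genes at this level had at least 1. A 3' UMI count does not separate such transcripts from the coding ones.

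After cycloheximide the factors did not move as a block. Upf2 and Smg9 were 2.00-fold and 1.92-fold higher than the control after 6 h, Upf3b was higher by less, and Upf3a, Smg1 and, after 6 h, Smg8 were below the control, all by CPM. By mean UMIs per barcode Upf3a and Smg1 lay above the control after 3 h (0.035 and 0.091 on the log2 scale). The median log2 ratio of the 9 factors to the control was 0.23 after 3 h and 0.20 after 6 h, and the median of all 7608 genes averaging 10 CPM or more was 0.11 and 0.17. At least 1.5-fold higher were 2 of 9 factors after 3 h, against 13.9% of all genes, and 2 of 9 (22.2%) after 6 h, against 22.1% of all genes. The share of factors past this fold after 6 h was thus close to that of the background. Under TMM factors, described next, 0 of 9 passed it after 3 h (8.60% of all genes) and 2 of 9 after 6 h (11.6% of all genes). By CPM no factor was 1.5-fold lower, against 2.13% of genes after 3 h and 7.79% after 6 h. Under TMM factors Upf3a (-0.71) and Smg8 (-0.62) were so after 6 h, against 16.9% of genes, and none after 3 h, against 5.23%. All 9 passed the floor of 10 CPM, Smg9 only through the treated libraries, since it had 9.84 CPM in control cells.

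The zero of these ratios depends on the scaling. TMM factors, which assume that most genes are unchanged, moved every log2 ratio by -0.17 after 3 h and -0.29 after 6 h, and took the share of all genes above 0 from 64.1% to 42.6% after 3 h and to 40.5% after 6 h. Mean UMIs per barcode moved them by 0.27 and 0.11. The percentile of a factor among all genes is the same under each of these scalings and is therefore given with each ratio. Intervals are exact 95% intervals and cover counting error only.

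**Figure D1:**
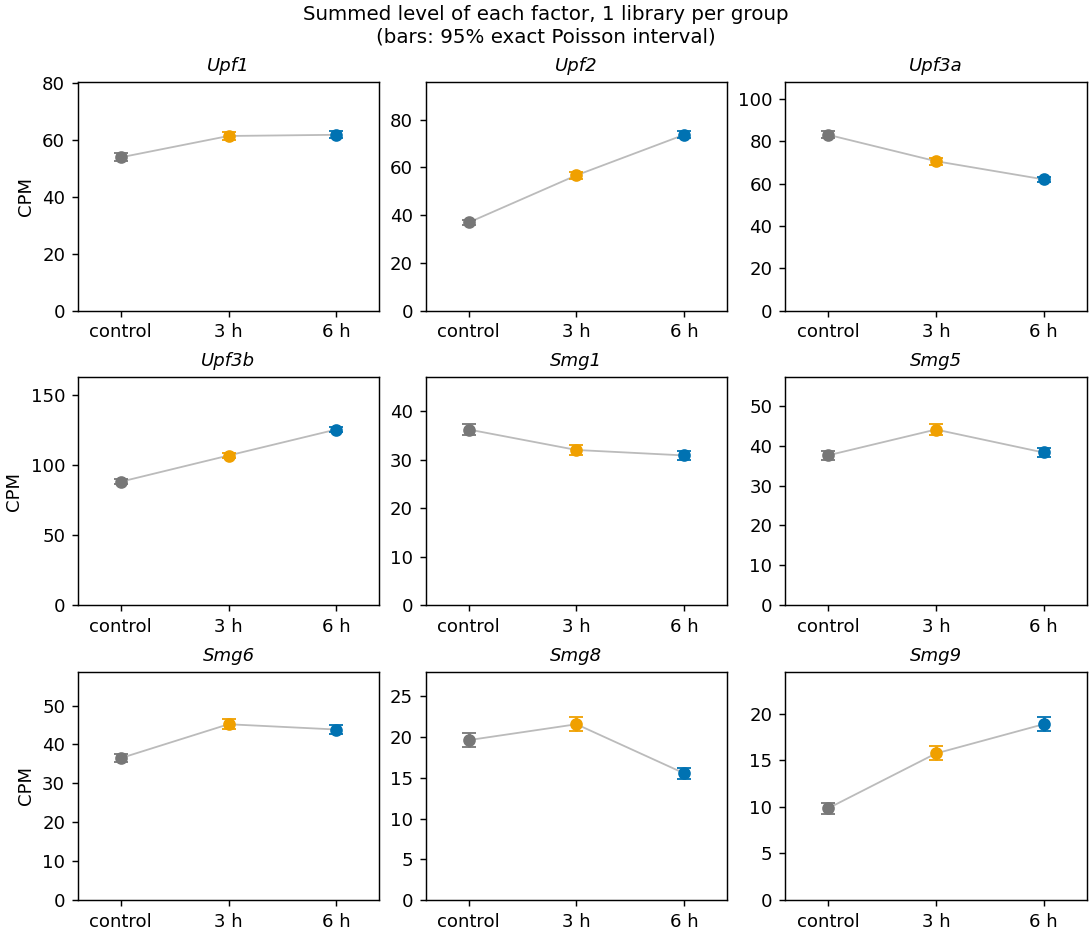
Summed level of each factor in CPM (vertical axes, from 0, 1 panel a gene) in the control, 3 h and 6 h libraries, with 95% exact Poisson intervals. Upf2, Upf3b and Smg9 are lowest in the control and highest after 6 h, Upf3a is the reverse, and Smg8 is lowest after 6 h.

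Upf1, the helicase at the centre of the pathway (ENSMUSG00000058301, chr8:70331525-70353278, minus strand), had 53.8 CPM in control cells (52.4 to 55.1), 61.2 CPM after 3 h (59.8 to 62.8) and 61.7 CPM after 6 h (60.4 to 63.0). By CPM both treated libraries were above the control and did not differ from each other beyond counting error. Its log2 ratio was 0.19 after 3 h (percentile 58.9 of all genes) and 0.20 after 6 h (percentile 52.7). Upf1 thus stood near the middle of all genes, and its 6 h ratio was -0.088 under TMM factors. With each barcode thinned to 15000 UMIs, its ratios were higher, at 0.36 after 3 h and 0.34 after 6 h. The medians of all genes in that setting were 0.12 and 0.17. The annotated 3' end of Upf1 overlaps Cers1 and Gdf1 on the opposite strand by 68 and 63 bases. Whether counting used the strand is not given in the sources used here.

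Upf2 (ENSMUSG00000043241, chr2:5951469-6056703, plus strand) encodes the bridge between UPF1 and the UPF3 proteins. It had 36.9 CPM in control cells (35.8 to 38.1), 56.7 CPM after 3 h (55.3 to 58.1) and 73.6 CPM after 6 h (72.2 to 75.1). No 2 of these intervals overlapped, and the order was control, 3 h, 6 h. The log2 ratio was 0.62 after 3 h (0.56 to 0.68, percentile 87.5) and 1.00 after 6 h (0.94 to 1.05, percentile 91.3), the highest 6 h ratio of the 9. Under TMM factors it was 0.44 and 0.71, so the 3 h value fell short of 1.5-fold, which is 0.585 on the log2 scale, while the 6 h value did not.

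The UPF3 paralogues differed in direction. Upf3b, on the X chromosome (ENSMUSG00000036572, chrX:37091678-37110322, minus strand), encodes the UPF3 protein that is the stronger activator of NMD. It had 88.1 CPM in control cells (86.3 to 89.8), 107 CPM after 3 h (105 to 109) and 125 CPM after 6 h (123 to 127). Like Upf2 it was in the order control, 3 h, 6 h with no overlap, with log2 ratios of 0.28 (percentile 67.0) and 0.51 (percentile 73.8). Upf3a (ENSMUSG00000038398, chr8:13785615-13799193, plus strand), for which both weak activation and repression of NMD have been described, had 83.1 CPM in control cells (81.4 to 84.8), 70.6 CPM after 3 h (69.0 to 72.2) and 62.0 CPM after 6 h (60.7 to 63.3). It was in the opposite order, again with no overlap. Its log2 ratio was -0.23 after 3 h (percentile 12.5) and -0.42 after 6 h (-0.46 to -0.38, percentile 12.2). By mean UMIs per barcode its 3 h ratio was 0.035, so the side of the control on which Upf3a lay after 3 h depends on the scaling, and after 6 h it was below the control under each scaling.

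Smg1 (ENSMUSG00000030655, chr7:118131308-118243670, minus strand) encodes the kinase that phosphorylates UPF1. It had 36.2 CPM in control cells (35.1 to 37.3), 32.0 CPM after 3 h (30.9 to 33.1) and 30.9 CPM after 6 h (29.95 to 31.8). Both treated libraries were below the control by CPM and overlapped each other. The log2 ratios were -0.18 (percentile 16.9) and -0.23 (percentile 20.5) and the 3 h ratio was 0.091 by mean UMIs per barcode. The annotated gene Gm45084 lies inside Smg1 on the same strand, over 1957 bases. Its part in the Smg1 counts was not tested.

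The transcripts of the partners of the kinase, SMG8 and SMG9, took different courses. Smg8 (ENSMUSG00000020495, chr11:87077732-87086774, minus strand) had 19.6 CPM in control cells (18.8 to 20.5), 21.6 CPM after 3 h (20.7 to 22.5) and 15.6 CPM after 6 h (14.9 to 16.2). It was highest after 3 h by a small margin and lowest after 6 h. The log2 ratio was 0.14 after 3 h (percentile 52.9) and -0.34 after 6 h (percentile 15.3). Under TMM factors the 3 h value was -0.038. From 3 h to 6 h it was lower by a log2 ratio of -0.47 (-0.56 to -0.39, percentile 4.28), the lowest of the 9. Smg9 (ENSMUSG00000002210, chr7:24399619-24422778, plus strand) had 9.84 CPM in control cells (9.27 to 10.4), 15.7 CPM after 3 h (15.0 to 16.5) and 18.9 CPM after 6 h (18.2 to 19.6). It was in the order control, 3 h, 6 h with no overlap, from 1097, 1680 and 2647 UMIs. Its log2 ratio was 0.68 after 3 h (0.57 to 0.79, percentile 89.2) and 0.94 after 6 h (0.84 to 1.04, percentile 90.0). Under TMM factors it was 0.50 and 0.65.

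Smg5 and Smg6 act after UPF1 is phosphorylated. Smg5, an adaptor that leads to decapping and deadenylation (ENSMUSG00000001415, chr3:88336260-88362338, plus strand), had 37.6 CPM in control cells (36.5 to 38.8), 44.1 CPM after 3 h (42.8 to 45.4) and 38.3 CPM after 6 h (37.3 to 39.4). It was above the control after 3 h, and the control and 6 h values did not differ beyond counting error. Its log2 ratios were 0.23 (percentile 62.8) and 0.027 (percentile 38.2), the latter -0.26 under TMM factors. Smg6, the endonuclease that cuts the target (ENSMUSG00000038290, chr11:74925823-75164448, plus strand), had 36.5 CPM in control cells (35.4 to 37.6), 45.2 CPM after 3 h (43.9 to 46.5) and 43.8 CPM after 6 h (42.8 to 45.0). By CPM both treated libraries were above the control and overlapped each other, with log2 ratios of 0.31 (percentile 69.5) and 0.27 (percentile 57.9). The 6 h ratio was -0.021 under TMM factors. The annotated 5' end of Smg6 overlaps Srr on the opposite strand by 126 bases, and further antisense genes and pseudogenes lie inside it.

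**Figure D2:**
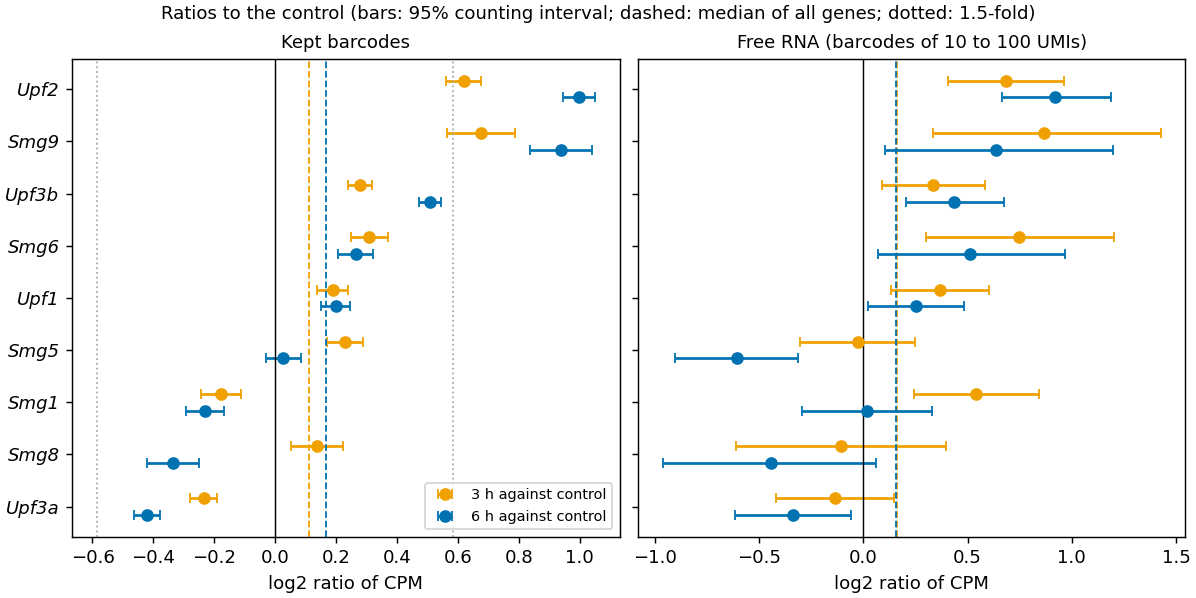
Log2 ratio of CPM to the control (horizontal axes) for each factor after 3 h (orange) and 6 h (blue), with 95% counting intervals, in kept barcodes (left) and in free RNA (right). Dashed lines are the medians of all genes, which nearly coincide on the right, and dotted lines on the left mark 1.5-fold. Upf2 and Smg9 lie past 1.5-fold at both times on the left, though not after 3 h under TMM factors, and Upf3a lies below 0, though at 0.035 after 3 h by mean UMIs per barcode.

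Of the 9 factors, 6 (Upf1, Upf2, Upf3b, Smg1, Smg5 and Smg6) belong to those reported as NMD targets in human cells. By CPM, 5 of these 6 were above the control after 3 h and after 6 h, against 64.1% of all genes at either time, and Smg1 was below it. The 6 h count includes Smg5 at 0.027 (-0.032 to 0.085), which did not differ from the control beyond counting error. Under TMM factors 5 were above it after 3 h, against 42.6% of all genes. After 6 h 2 were, Upf2 and Upf3b, against 40.5%. By CPM 1 of the 6 (16.7%), Upf2, was at least 1.5-fold higher at either time, against 13.9% of all genes after 3 h and 22.1% after 6 h. Under TMM factors it was 0 of the 6 after 3 h (8.60% of all genes) and 1 after 6 h (11.6% of all genes). Smg9, the other factor past 1.5-fold, is not in that group, nor are Upf3a and Smg8.

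The upstream ATG was found on both sides. With it, Upf2 and Smg9 had 6 h ratios of 1.00 and 0.94, Smg5 0.027 and Smg1 -0.23. The 5 factors without one ranged from -0.42 for Upf3a to 0.51 for Upf3b. Over all coding genes at this level, the median 6 h ratio was 0.14 with an upstream ATG and 0.19 without, and 20.8% and 22.4% were at least 1.5-fold higher.

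Ratios between 2 factors within a library do not depend on the scaling of libraries, so the change of such a ratio was computed for partners in the pathway. The ratio of Upf3b to Upf3a UMIs was 1.43-fold that of the control after 3 h (1.37 to 1.49) and 1.91-fold after 6 h (1.83 to 1.98). The ratio of Upf2 to Upf1 was 1.35-fold after 3 h (1.28 to 1.42) and 1.74-fold after 6 h (1.66 to 1.83). Both pairs thus shifted toward Upf3b and Upf2, and further after 6 h than after 3 h. Within the kinase complex, the ratio of Smg9 to Smg1 was 1.81-fold after 3 h (1.65 to 1.98) and 2.25-fold after 6 h (2.07 to 2.44). Smg9 to Smg8 was 1.45-fold after 3 h (1.32 to 1.60) and 2.42-fold after 6 h (2.20 to 2.65), the largest change of the 7 pairs computed. Smg8 to Smg1 was 1.24-fold after 3 h (1.15 to 1.34) and 0.930-fold after 6 h (0.863 to 1.00), so the latter did not differ from the control beyond counting error. Among the effectors, Smg6 to Smg5 was 1.06-fold after 3 h (0.996 to 1.12) and 1.18-fold after 6 h (1.11 to 1.25). Upf2 to Upf3b was 1.27-fold and 1.40-fold, so Upf2 stood further from the control than Upf3b did.

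Between 3 h and 6 h, 0 of 9 factors differed by 1.5-fold by CPM, against 1.74% of all genes higher and 2.52% lower. By mean UMIs per barcode 1 of 9 was 1.5-fold lower, Smg8 at -0.63, against 5.28% of all genes. The log2 ratio of 6 h to 3 h by CPM was -0.47 for Smg8 (-0.56 to -0.39), the furthest from 0 of the 9. It was 0.38 for Upf2 (0.33 to 0.42), 0.26 for Smg9 (0.17 to 0.35) and 0.23 for Upf3b (0.20 to 0.27). It was -0.20 for Smg5 (-0.26 to -0.15) and -0.19 for Upf3a (-0.23 to -0.14). For Upf1, Smg1 and Smg6 the interval by CPM included 0. Their ratios were -0.10, -0.16 and -0.16 under TMM factors and -0.15, -0.21 and -0.21 by mean UMIs per barcode. By CPM the median over the 9 was -0.044 and that of all genes 0.044.

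At the level of single barcodes, each was thinned to 15000 UMIs so that depth was equal, and no kept barcode was left out. Upf2 had at least 1 UMI in 40.8% of control barcodes (38.8 to 42.9), 56.6% after 3 h (54.3 to 59.0) and 66.1% after 6 h (64.2 to 67.9). Smg9 went from 13.1% (11.7 to 14.6) to 18.7% (16.9 to 20.7) and 25.1% (23.4 to 26.8), and Upf3b from 71.2% (69.2 to 73.1) to 75.0% (72.9 to 77.0) and 84.8% (83.4 to 86.2). These shares were higher in each treated library than in the control, as the CPM were, although the Upf3b intervals of the control and 3 h overlapped. Upf3a went from 67.0% (65.0 to 69.0) to 63.9% (61.6 to 66.2) and 59.7% (57.7 to 61.6), where the control and 3 h intervals overlapped as well. For Smg1 the shares were 41.8%, 35.9% and 36.0%, for Smg8 25.6%, 27.5% and 21.6%, for Smg5 41.8%, 46.9% and 43.7%, for Smg6 40.0%, 48.2% and 48.0%, and for Upf1 51.5%, 59.4% and 58.8%. No order was read between 3 h and 6 h for Smg1 and Upf1, where shares and CPM go opposite ways.

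Unthinned, the Upf2 shares were 76.0%, 90.4% and 94.0%, the Smg9 shares 37.3%, 55.6% and 58.0%, and the Upf3b shares 95.2%, 97.1% and 98.1%. The variance of the thinned counts over barcodes was 0.971 to 1.18 times their mean over the 9 factors and 3 libraries, where counting alone gives a ratio of 1. A median of 4 of the 9 factors had a UMI in a thinned barcode of each library. The libraries came from 1 cell line, and barcodes were not sorted into cell types. No cell type that lacks these genes was therefore at hand to give a background share.

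**Figure D3:**
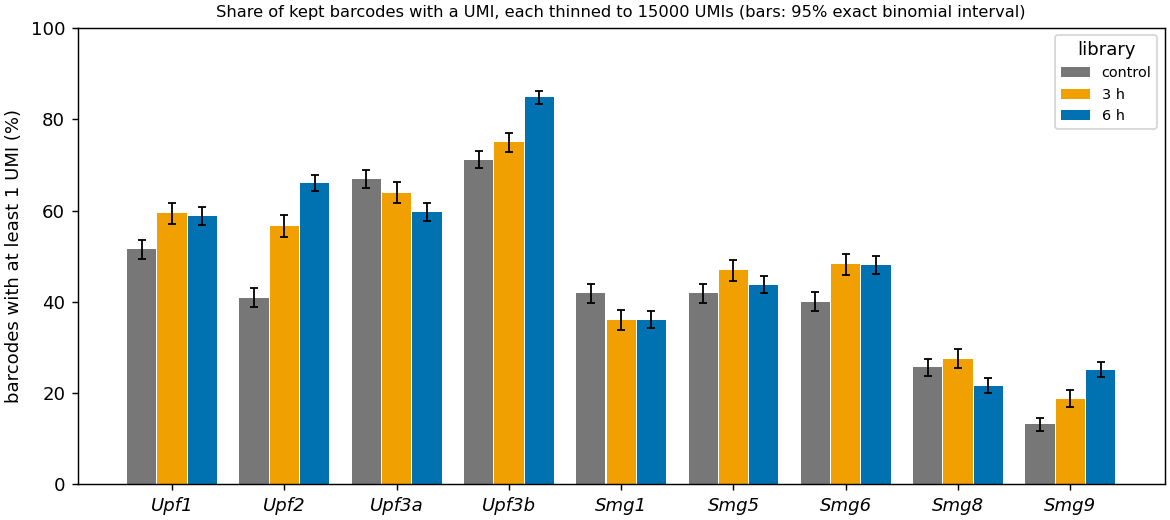
Share of kept barcodes with at least 1 UMI of each factor (vertical axis, percent, from 0) after thinning to 15000 UMIs, in the control, 3 h and 6 h libraries, with 95% exact binomial intervals. The Upf2 share goes from 40.8% to 66.1% and the Smg9 share from 13.1% to 25.1%, while the Upf3a share goes from 67.0% to 59.7%.

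Barcodes with 10 to 100 UMIs mainly hold free RNA, and gave a separate set of UMIs from the same libraries. In them Upf2 had 181, 267 and 374 UMIs, or 50.3, 80.8 and 95.4 CPM in the control, 3 h and 6 h libraries, and log2 ratios of 0.68 (0.41 to 0.96) and 0.92 (0.66 to 1.19). The free-RNA ratios of Smg9 were 0.87 (0.33 to 1.42) and 0.64 (0.11 to 1.20), and those of Upf3b 0.34 (0.091 to 0.58) and 0.44 (0.21 to 0.67). Upf3a had -0.13 (-0.42 to 0.15) and -0.34 (-0.62 to -0.059). These 4 genes lay on the same side of the control as in kept barcodes. Smg1 and Smg5 did not follow their kept barcodes. Smg1 had a free-RNA ratio of 0.54 after 3 h (0.25 to 0.84) against -0.18 in kept barcodes, and Smg5 had -0.60 after 6 h (-0.90 to -0.31) against 0.027. Smg8 had -0.10 after 3 h against 0.14 in kept barcodes, with a free-RNA interval that included 0 (-0.61 to 0.39). Its 6 h value, -0.44 (-0.96 to 0.063), was below the control as in kept barcodes. Upf1 (0.37 and 0.25) and Smg6 (0.74 and 0.51) were above the control at both times, as in kept barcodes by CPM.

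The 62 control barcodes left out for a mitochondrial share under 1% held 6357765 UMIs. Their summed level of the 9 factors was 199 CPM, against 402 CPM in the kept control barcodes, with Upf2 at 12.6 CPM and Smg6 at 6.45 CPM. Upf1 had 50.6 CPM against 53.8 CPM, and Smg9 10.2 CPM against 9.84 CPM. With all barcodes under 1% put back in all libraries, the Upf2 ratio was 0.67 after 3 h and 1.05 after 6 h, and Smg9 had 0.67 and 0.94.

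Other genes of the pathway were read from lists of further NMD genes, the exon junction complex and decay enzymes. Of 11 further NMD genes, 8 averaged 10 CPM or more. At least 1.5-fold higher was 1 of these 8 at each time, Pnrc2, with list medians of -0.15 after 3 h and -0.19 after 6 h, where 13.9% and 22.1% of all genes passed this fold. Pnrc2, which links UPF1 to decapping, had 26.8 CPM in control cells, 50.7 CPM after 3 h and 62.6 CPM after 6 h, a 6 h log2 ratio of 1.23 (1.17 to 1.29) at percentile 94.6. The lowest was the AAA ATPase gene Ruvbl1, at -0.32 (-0.35 to -0.29).

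In the exon junction complex, 8 of 9 genes passed the floor, and 2 of 8 were at least 1.5-fold higher at each time, Casc3 and Pym1, which is 25.0% against 13.9% of all genes after 3 h and 22.1% after 6 h. Casc3, a complex component, had 31.8 CPM in control cells, 49.0 CPM after 3 h and 56.9 CPM after 6 h. Pym1, which takes the complex apart on translated RNA, had 33.1 CPM in control cells, 56.3 CPM after 3 h and 62.6 CPM after 6 h, a 6 h log2 ratio of 0.92 (0.86 to 0.98). The lowest after 6 h was the core gene Magoh at 0.038, which was -0.25 under TMM factors, and the median was 0.15 after 3 h and 0.14 after 6 h.

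Of 14 decay enzymes and cofactors, 13 passed the floor. At least 1.5-fold higher were 1 of 13 after 3 h, Dcp1a, and 2 of 13 after 6 h, Dcp1a and Edc3, which is 7.69% and 15.4% against 13.9% and 22.1% of all genes. By CPM 1 of 13, Dcp2, was at least 1.5-fold lower after 6 h, against 7.79% of all genes. The decapping activator Dcp1a had 10.7 CPM in control cells, 20.1 CPM after 3 h and 20.3 CPM after 6 h, a 6 h log2 ratio of 0.92 (0.82 to 1.02). Edc3, an enhancer of decapping, had 19.1 CPM in control cells and 29.5 CPM after 6 h, with a log2 ratio of 0.50 after 3 h and 0.63 after 6 h (0.55 to 0.70). Casc3 and Edc3 were named after their values were seen. The catalytic partner of DCP1A, encoded by Dcp2, was on the other side, with 101 CPM in control cells, 75.8 CPM after 3 h and 57.7 CPM after 6 h, a 6 h ratio of -0.80 (-0.85 to -0.76) at percentile 4.09. The median of the decay list was 0.15 after 3 h and 0.13 after 6 h. Under TMM factors 1 gene of each of the 3 lists was at least 1.5-fold higher after 3 h (8.60% of all genes), and 1 of each after 6 h (11.6%). At least 1.5-fold lower under TMM factors were Dcp2 after 3 h (5.23% of all genes) and Dcp2, Cnot1 (-0.79) and Ruvbl1 (-0.61) after 6 h (16.9%). Cnot1, the scaffold of a deadenylase complex, was named after its value was seen.

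Known NMD-sensitive transcripts gave larger ratios than any factor in most cases. Of 13, 10 (76.9%) were at least 1.5-fold higher at each time by CPM and 9 under TMM factors. Of all genes, 13.9% after 3 h and 22.1% after 6 h passed this fold by CPM, and 8.60% and 11.6% under TMM factors. The CPM medians of the 13 were 2.22 after 3 h and 2.57 after 6 h. Their 6 h ratios ranged from 0.50 for the splicing factor gene Srsf2 to 4.16 for the noncoding host gene Snhg15. The 6 h ratio of Upf2, the highest of the factors, was thus below the median of that list. The list was chosen with earlier results of these data known, so its share and median are not an independent yardstick.

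**Figure D4:**
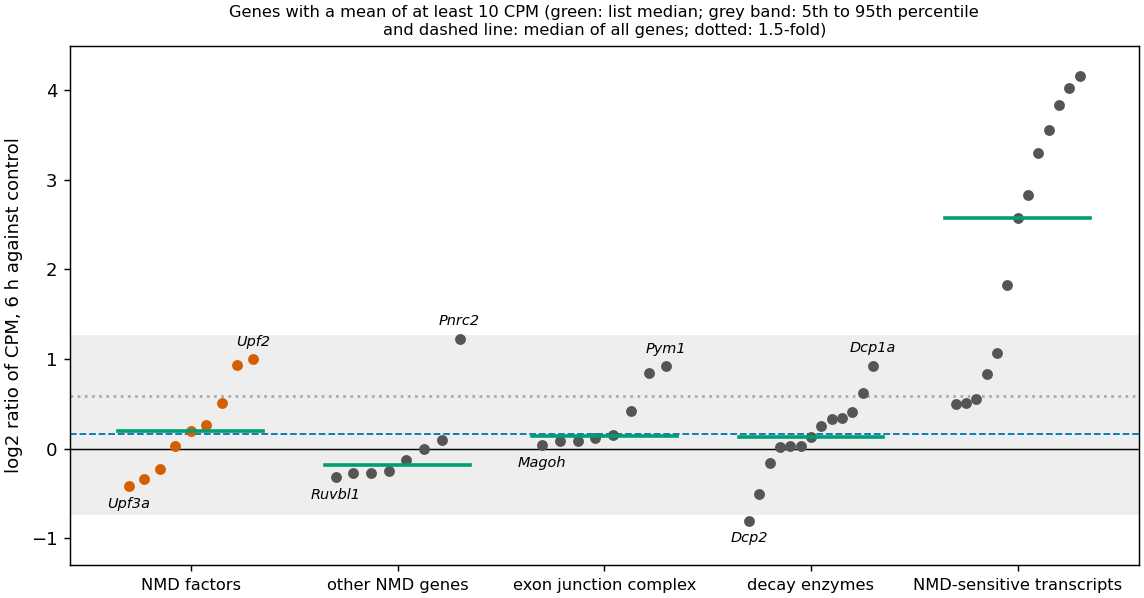
Log2 ratio of CPM after 6 h against the control (vertical axis) for the genes of each list averaging 10 CPM or more, ordered within a list, with list medians in green. The grey band spans the 5th to 95th percentile of all genes (-0.73 to 1.26), and the 9 factors, between -0.42 and 1.00, lie inside it.

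Upf2 had the highest 6 h ratio of the factors, and the genes nearest to it in the pair of log2 ratios (3 h and 6 h against the control, over 3 libraries) among genes of at least 20 CPM were Mto1, Coq9, Rpf2, Cdk10 and Anapc7. Their distances from it on the log2 scale were 0.015 to 0.031. Mto1 had 18.8 CPM in control cells, 28.8 CPM after 3 h and 37.2 CPM after 6 h. The genes were close in 2 ratios that share 1 control library.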

How the data were processed

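Single-cell RNA was measured in 3 libraries, 1 per group. The authors deposited unnormalized UMI counts for every gene and barcode, and the matrices list 6794880 barcodes each, so cells had not been called. They were made with Cell Ranger 4.0.0 on mm10, per the submitters' processing notes. The annotation and the handling of overlapping genes are not given in the sources used here.

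UMIs were summed over kept barcodes (87.3 to 92.9% of each library's UMIs), scaled to CPM and compared as log2 ratios with a prior of 0.5 counts. Median depth per barcode was 43160, 51726 and 46200 UMIs for control, 3 h and 6 h. Doublets were not called. With 1 library per group no test was made. Intervals are exact Poisson, conditional binomial or Clopper-Pearson at 95%. The ratios and intervals were run on simulated sums drawn from the Poisson model that the intervals assume. This checks the computation only, since the simulation held no spread between barcodes or libraries. Gene models are those of GENCODE M21 (GRCm38), to which 32158 of 32285 identifiers matched, and sequences were read from its transcripts.

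Named genes were the 9 factors, the highest and lowest 6 h ratio of each list and the 5 genes nearest the factor of highest 6 h ratio. Further genes past 1.5-fold were named after their values were seen. 1 further gene of the pathway is not reported here. The factors, lists, pairs and groupings were chosen with earlier results of these data known. The 12 alternatives covered scaling (TMM in edgeR 4.0.16, R 4.3.3), barcode filters, thinning, free RNA, prior and floor. Python 3.11.15, numpy 2.4.6 and scipy 1.17.1 were used.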

Additional observations from a re-analysis of the deposited data

Results flagged for a closer look

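The difference between the 3 h and 6 h log2 ratios of Smg8 was -0.47, with Smg8 above the control at 3 h and below it at 6 h. For Dis3, an exosome nuclease, the difference was -0.22 in the same sense, and for Magoh it was 0.073 in the opposite sense. Counting intervals excluded 0 at both times for these 3 genes. With 1 library a time point, and a control that both times share, the difference was not tested. Under TMM factors all 3 lay below the control at both times, with 3 h ratios of -0.038 for Smg8 and -0.11 for Dis3 and a 6 h ratio of -0.25 for Magoh.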

How the results depend on the processing

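Under TMM factors 0 factors were 1.5-fold higher at 3 h (8.60% of all genes) and 2 at 6 h (11.6%), and the median log2 ratio was 0.054 at 3 h, -0.088 at 6 h and -0.16 for 6 h against 3 h. By TMM, Smg8 at 3 h was -0.038, Upf1 at 6 h -0.088 and Smg6 at 6 h -0.021. Mean UMIs per barcode gave medians of 0.50, 0.31 and -0.21, with 3 factors past 1.5-fold at 6 h (27.8% of all genes) as Upf3b reached 0.62, and 3 h ratios of 0.035 for Upf3a and 0.091 for Smg1. The 6 h median was 0.25 without barcodes above 2 times the median UMIs and 0.34 after thinning. Subtracting 10% free RNA gave 0.034 for 6 h against 3 h. A floor of 50 CPM, which leaves Upf1, Upf2, Upf3a and Upf3b, gave counts of 1 at 3 h (8.78% of all genes) and 1 at 6 h (15.2%) and medians of 0.35 at 6 h and 0.12 for 6 h against 3 h. The causes of the other shifts were not tested. Over all alternatives Upf2 ranged from 0.44 to 0.89 at 3 h and 0.71 to 1.11 at 6 h, and Smg9 from 0.50 to 0.95 and 0.65 to 1.05. No paired analysis was possible because each group was 1 library. Depth was not the limit for the factors in kept barcodes, whereas free RNA held 47 to 378 UMIs per factor.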
